A study of Mus musculus with 32 samples.

Results

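The expression of 9 genes of the major histocompatibility complex (MHC) class I pathway was followed in single-cell RNA-seq libraries of mouse brain. They were picked by name from the gene rows of the count tables: the heavy chains H2-D1, H2-K1 and H2-T23, the light chain B2m, the peptide loading genes Tap1, Tap2 and Tapbp, and the immunoproteasome subunits Psmb8 and Psmb9. These are 9 of 55341 genes in the tables, of which 22199 had at least 1 unique molecular identifier (UMI, 1 counted RNA molecule) in the cells kept. The libraries came from 16 female mice, a cortex and a hippocampus library from each, 1 mouse being 1 replicate. Of the mice, 4 were Tg2576-PMX205, 4 were Tg2576-vehicle, 3 were WT-PMX205 and 5 were WT-vehicle. Tg2576 mice are hemizygous for a human APP transgene with the Swedish mutation, driven by the hamster prion promoter on a B6/SJL background, and the WT mice were littermates. PMX205, an antagonist of the complement receptor C5aR1, was given in the drinking water for 12 weeks from 12 months of age, at about 2 to 8 mg/kg per day, and vehicle was plain water. All mice were 15 months old at harvest, and the brain tissue was dissociated in an inhibitor cocktail with actinomycin D, triptolide and anisomycin before CD11b and ACSA-2 bead isolation of microglia and astrocytes. The strain labels name an Arctic model where the study's methods name Tg2576, and they contradict the genotype labels in WT-vehicle 4 and Tg2576-vehicle 3. In 5 mice they state a knockout of C5ar1 and in 5 others overexpression of C5a, lines the methods do not describe, so groups here follow the genotype and treatment labels.

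Class I molecules display peptides from proteins made inside the cell to CD8 T cells. Proteasomes cut proteins into peptides, and the TAP1-TAP2 pump carries them into the endoplasmic reticulum. Tapasin (Tapbp) holds empty heavy chains beside the pump, and beta-2 microglobulin (B2m) is the light chain that pairs with heavy chains. H2-K1 and H2-D1 encode the classical heavy chains, H2-T23 encodes the non-classical Qa-1, and Psmb8 and Psmb9 replace constitutive catalytic subunits in the immunoproteasome. Interferons induce most of these genes together through IRF sites, and NLRC5 acts on a shared upstream module of class I promoters. In the brain, endothelial cells and microglia are known as the main class I expressing cells, and disease-associated microglia (DAM), which gather at amyloid plaques, are known to carry more class I RNA.

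Of the 9 genes, 8 lie in the H2 region of chromosome 17 and B2m lies on chromosome 2 (GRCm38). H2-K1 spans chr17:33996017-34000347 on the minus strand and H2-D1 spans chr17:35262730-35267499 on the plus strand, with 1262382 bases between them, while B2m spans chr2:122147686-122153083. Psmb9, Tap1, Psmb8 and Tap2 are neighbours within chr17:34181987-34216321, and the annotated ends of Tap1 and Psmb9, which are transcribed away from each other, overlap by 212 bases. The promoter windows below, from RefSeq (GRCm38.p6, 250 bases before to 50 after the annotated start), are shown because H2-K1 and H2-D1 differed together between cell types and between microglial classes, with B2m and Tap1 for comparison. Capitals mark matches to an IRF element (AANNGAAA) or a kB-like site (GGGANNNCC) on either strand.
H2-K1, chr17:34000298-34000597, minus strand: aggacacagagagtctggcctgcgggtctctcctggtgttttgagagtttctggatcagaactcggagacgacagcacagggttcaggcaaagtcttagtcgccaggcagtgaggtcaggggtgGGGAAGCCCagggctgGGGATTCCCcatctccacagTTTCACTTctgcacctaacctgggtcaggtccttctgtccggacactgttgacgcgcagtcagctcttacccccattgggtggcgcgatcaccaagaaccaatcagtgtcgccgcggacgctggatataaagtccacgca
H2-D1, chr17:35262844-35263143, plus strand: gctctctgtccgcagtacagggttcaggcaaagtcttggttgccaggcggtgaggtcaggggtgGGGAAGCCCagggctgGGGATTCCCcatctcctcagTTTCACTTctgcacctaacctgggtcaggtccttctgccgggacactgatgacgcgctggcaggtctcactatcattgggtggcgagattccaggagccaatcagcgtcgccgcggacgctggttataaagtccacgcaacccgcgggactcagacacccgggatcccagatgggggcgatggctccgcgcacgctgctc
B2m, chr2:122147437-122147736, plus strand: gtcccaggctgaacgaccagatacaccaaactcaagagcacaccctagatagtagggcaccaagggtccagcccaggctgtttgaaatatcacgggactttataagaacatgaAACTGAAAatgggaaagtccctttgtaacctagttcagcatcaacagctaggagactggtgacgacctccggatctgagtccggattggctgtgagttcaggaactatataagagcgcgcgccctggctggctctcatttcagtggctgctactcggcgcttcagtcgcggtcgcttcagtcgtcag
Tap1, chr17:34187306-34187605, plus strand: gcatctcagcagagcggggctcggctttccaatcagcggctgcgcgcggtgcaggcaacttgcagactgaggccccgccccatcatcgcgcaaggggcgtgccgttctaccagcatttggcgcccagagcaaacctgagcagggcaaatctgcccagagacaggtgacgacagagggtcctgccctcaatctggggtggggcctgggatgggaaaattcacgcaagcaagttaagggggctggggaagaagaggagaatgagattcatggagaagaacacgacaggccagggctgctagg
The H2-K1 and H2-D1 windows both held the kB-like sequences GGGAAGCCC and GGGATTCCC followed by the IRF match TTTCACTT, and 59 of the 60 bases from the first kB-like match on were identical. The B2m window held an IRF match and no match to the kB-like pattern as searched. It did hold gggaaagtcc, which is 1 base longer than that pattern and was not counted. The Tap1 window, which shares 275 bases with that of Psmb9, held neither an IRF nor a kB-like match. In all, 5 patterns were searched in the 8 members with a window, on both strands, and no matches of different patterns overlapped in these windows. IRF elements were in 4 of the 8 (H2-K1, H2-D1, B2m and H2-T23) against 23.9% of 32851 mouse promoter windows, and kB-like sites were in 2 of 8 against 18.6%. GAS-like sites (TTCNNNGAA) were in 1 of 8, Psmb8, against 8.30%. An inverted CCAAT box (ATTGG) was in 7 of 8 and a CRE-like site (TGACG) in 5 of 8, against 37.4% and 20.8%.

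The 32 libraries held 73 to 1586 barcodes and 37205 to 1072049 UMIs each, 13917 barcodes in all. After filtering on UMIs, genes and mitochondrial share and removing 359 likely doublets, 5606 cells were kept, and cell types were assigned by lists of marker genes that do not include the 9 class I genes. There were 2411 microglia, 1274 astrocytes, 234 mural cells, 167 endothelial cells, 28 perivascular macrophages, 15 oligodendrocyte precursors and 11 ependymal cells, with 1457 cells left unassigned, of which 1421 had at least 5 UMIs of 1 marker list but did not meet the other criteria. Microglia carried Csf1r at 7274 and Tmem119 at 1985 counts per 1000000 UMIs (CPM), whereas the defining markers P2ry12 (4.67 CPM) and Gpr34 (0.359 CPM) were near 0. The 7 T and NK cell markers summed to 3.23 CPM in microglia. In 4 mice (Tg2576-PMX205 2 and 3, Tg2576-vehicle 4 and WT-vehicle 5), 23.2 to 55.7% of barcodes equalled another of the same library but for the first base. These shares were taken before filtering and without barcodes found in many libraries. Among kept cells the share can be higher, as in WT-vehicle 5, with 54.2% of barcodes but 69.5% of kept microglia. Such barcodes made up 1067 kept cells in the whole series, and 289 barcodes occurred in more than 1 library (622 kept cells). Every comparison was also run without either set of cells. In kept cells the 9 genes had 102 (H2-T23) to 3383 (H2-K1) UMIs. Counts were made on the C57BL/6J reference, the H2 alleles of these B6/SJL mice are not given in the sources used here, and 26.7% of the 31-base words of H2-D1 transcripts, 22.8% of those of H2-K1 and 24.5% of those of H2-T23 also occur in other genes, so the split of reads among class I heavy chains is uncertain. For B2m and Psmb9 this share was 0.

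The first comparison asked which cells carried class I RNA. H2-D1, H2-K1, B2m and Tapbp had their highest means in microglia or endothelial cells and their lowest in astrocytes. H2-D1 ranged from 131 to 1114 CPM in microglia (16 mice with at least 10 cells, median 338), was 728, 1118, 607 and 606 CPM in the endothelial cells of Tg2576-PMX205 2 and 3, Tg2576-vehicle 1 and WT-vehicle 1, ranged from 0 to 208 in mural cells (6 mice, median 166) and from 0 to 162 in astrocytes (13 mice, median 11.7). All 4 endothelial values were above every mural and astrocyte value. In an edgeR quasi-likelihood fit over the mice with at least 2 of these 4 types, with the mouse as a block, H2-D1 was 3.50 ± 0.28 log2 higher (± SE) in microglia than in astrocytes (adjusted p = 4.3e-26), and it was higher in microglia in 13 of 13 mice. It was 3.76 ± 0.40 log2 higher in endothelial cells than in astrocytes (adjusted p = 2.1e-16) and fell by 2.13 ± 0.44 from endothelial to mural cells (adjusted p = 6.6e-05).

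H2-K1, the other classical heavy chain, had the same order of means. Its levels were 1089 ± 365 CPM in endothelial cells (SD, 4 mice), 679.5 ± 387 in microglia (16 mice), 387 ± 160 in mural cells (6 mice) and 176 ± 111 in astrocytes (13 mice). It was 1.90 ± 0.22 log2 higher in microglia than in astrocytes (adjusted p = 1.4e-14) and 2.14 ± 0.34 higher in endothelial cells than in astrocytes (adjusted p = 2.7e-08), and in mural cells it fell by 1.36 ± 0.37 against endothelial cells (adjusted p = 0.0037). H2-T23 was sparse, with 20.4 ± 21.99 CPM in microglia, 47.1 ± 55.9 in mural cells, 7.22 ± 14.4 in endothelial cells and 0.704 ± 1.81 in astrocytes, where the SD was as large as the mean or larger in every type. It had too few counts to be tested between types.

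In the mice with at least 10 cells of a type, B2m had its highest mean in microglia, while the classical heavy chains H2-D1 and H2-K1 had theirs in endothelial cells. It was 553 ± 178 CPM in microglia, 311 ± 86.9 in endothelial cells, 215 ± 85.3 in mural cells and 87.4 ± 51.1 in astrocytes. In the 4 mice with at least 10 cells of both types, B2m was 489, 810, 733 and 612 CPM in microglia and 309.7, 239, 260.1 and 433 in endothelial cells, lower in endothelial cells in 4 of 4. In the same mice H2-D1 was 226, 947, 215 and 405 CPM in microglia against the endothelial values given above, and H2-K1 was 513, 1474, 387 and 500.1 in microglia against 1084, 1597, 925 and 751 in endothelial cells, both higher in endothelial cells in 4 of 4. In the fit, B2m fell by 1.65 ± 0.37 log2 from microglia to endothelial cells (adjusted p = 0.00011), while H2-D1 (0.26 ± 0.37, adjusted p = 0.63) and H2-K1 (0.24 ± 0.33, adjusted p = 0.62) did not pass. The order of B2m held for those 4 mice and not for most of the other 9 with endothelial cells, which had 1 to 9 of them, 41 cells with 44 UMIs of B2m in all. There B2m was higher in endothelial cells than in microglia in 7 of 9 mice, and so were H2-D1 and H2-K1, each in 7 of 9. With at least 3 cells of a type in place of 10, chosen after seeing the data, B2m was still lower in the fit (-1.12 log2, adjusted p = 0.0056), but the median of all genes was -0.80, Tapbp passed too (-0.99, adjusted p = 0.016), and H2-K1 turned to -0.24 (adjusted p = 0.57). Scaling mattered as well, because with at least 10 cells the median of all genes tested was -0.55 with TMM factors, 0.13 with DESeq2 size factors and 0.04 with library totals alone. Relative to that median, B2m was at -1.10, -1.07 and -1.07 under the 3 scalings, H2-D1 at 0.81, 0.87 and 0.89, and H2-K1 at 0.79, 0.84 and 0.85. With DESeq2 size factors H2-D1 (adjusted p = 0.021) and H2-K1 (adjusted p = 0.012) passed as higher in endothelial cells and B2m stayed lower (-0.94, adjusted p = 0.036). Among cells with at least 1000 UMIs, B2m did not pass (-1.12, adjusted p = 0.0543).

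Of the loading genes, Tapbp was 391 ± 152 CPM in microglia, 371 ± 198 in endothelial cells, 191 ± 54.9 in mural cells and 91.4 ± 52.0 in astrocytes. It was higher than in astrocytes by 2.18 ± 0.24 log2 in microglia (adjusted p = 7.7e-16) and by 1.43 ± 0.40 in endothelial cells (adjusted p = 0.0021). Tap1 was 52.4 ± 35.9 CPM in microglia and 10.7 ± 17.8 in astrocytes, a difference of 2.25 ± 0.57 log2 (adjusted p = 0.00025), and it was at 0 in 8 of the 13 astrocyte samples. Tap2, the partner of Tap1 in the pump, showed no such difference, with 65.3 ± 28.9 CPM in microglia, 46.5 ± 21.98 in astrocytes, 62.2 ± 50.2 in endothelial cells and 125 ± 112 in mural cells, and 0.44 ± 0.37 log2 between microglia and astrocytes (adjusted p = 0.33). Tap2 rested on 74 UMIs in astrocytes and 167 in microglia.

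The immunoproteasome subunits were not tested between types for lack of counts. Psmb8 was 38.5 ± 23.8 CPM in microglia, 86.4 ± 107 in endothelial cells and 7.60 ± 10.5 in astrocytes, and it had 0 UMIs in 234 mural cells, which allows up to 12.1 CPM or 1.28% of cells with a UMI, counting error only. Psmb9 was 84.4 ± 48.2 CPM in microglia, 103 ± 69.5 in endothelial cells, 19.6 ± 32.7 in mural cells and 9.63 ± 20.6 in astrocytes. Psmb8 was higher in microglia than in astrocytes in 12 of 13 mice, and so was Psmb9. Of the rare types, the 28 perivascular macrophages held 46 UMIs of H2-K1 (1166 CPM), 20 of B2m (507 CPM) and 15 of H2-D1 (380.2 CPM), pooled over mice and without a test.

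**Figure D1:**
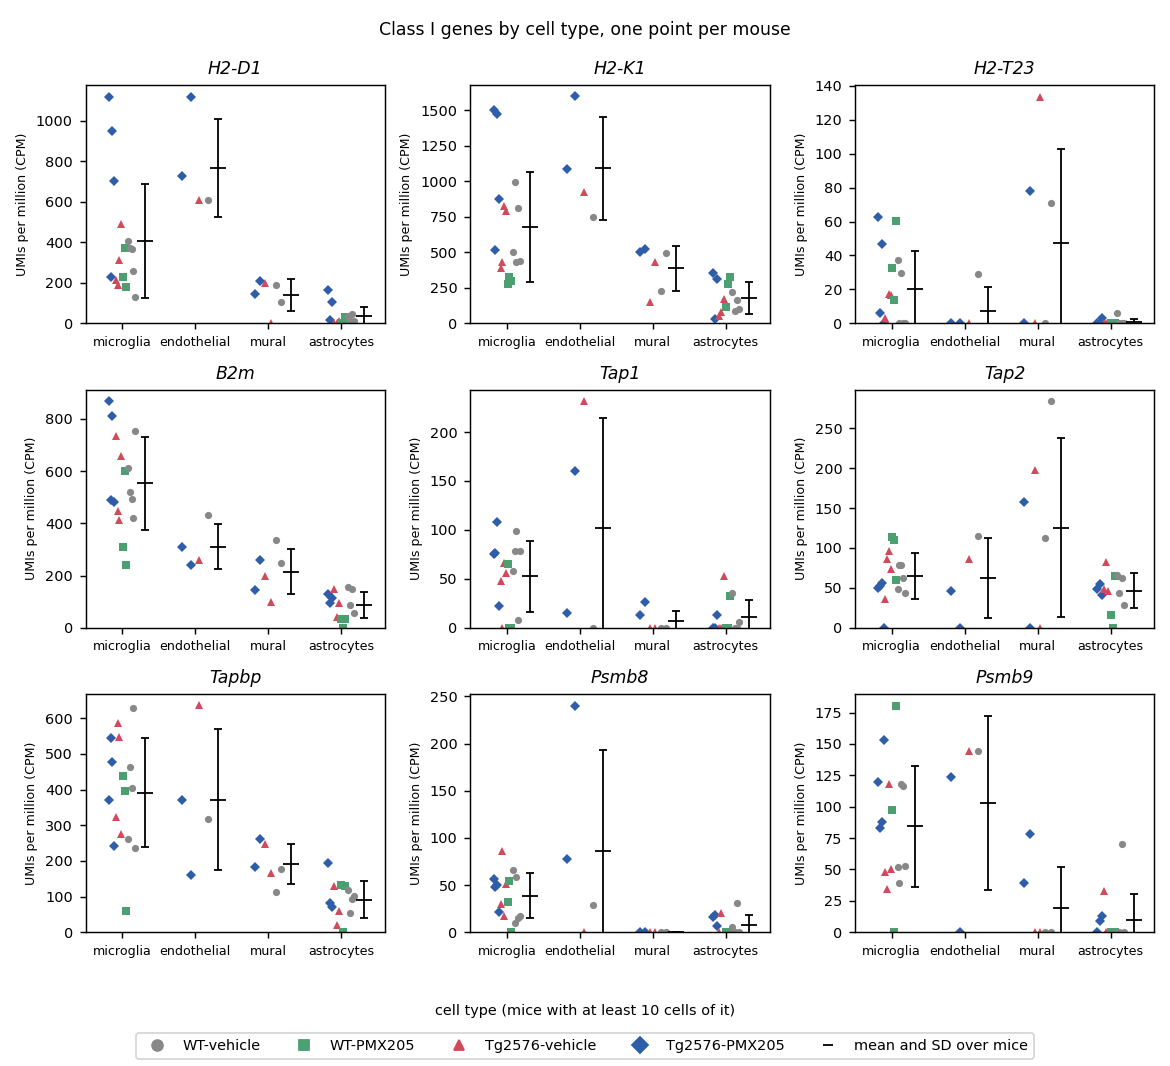
Level of each of the 9 class I genes in CPM (vertical axis from 0) by cell type (horizontal axis), 1 point per mouse with at least 10 cells of the type, coloured by group. Black bars give the mean and SD over mice, with the lower end not drawn below 0. Astrocytes sit lowest for H2-D1, H2-K1, B2m and Tapbp, while Tap2 overlaps between all 4 types.

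In all, 5 of the 6 class I genes tested were higher in microglia than in astrocytes, where 54.9% of the genes tested differed in either direction. Their median log2 difference was 2.22 against -0.02 over all genes. Between endothelial cells and astrocytes 3 of 6 passed, all higher in endothelial cells, against 36.4% of all genes, with medians of 1.60 and -0.57. Leaving out cells whose barcode occurred in several libraries, or taking DESeq2 size factors or library totals in place of TMM, made it 5 of 6 there. Between endothelial cells and microglia 1 of 6 passed (B2m) against 33.4% of all genes, and between mural and endothelial cells 2 of 6 (H2-D1 and H2-K1, lower in mural cells) against 16.5%. From 3 cells of a type on, 6 of 7 passed between endothelial cells and astrocytes, 2 of 7 between endothelial cells and microglia and 6 of 7 between mural and endothelial cells. With DESeq2 size factors in place of TMM, the share of called genes that were higher in microglia than in astrocytes was 37.6% rather than 47.7%. The share of called genes that were higher in endothelial cells than in astrocytes was 31.3% with TMM factors, 45.4% with DESeq2 size factors and 54.1% with library totals alone, and against microglia it was 33.7%, 58.9% and 55.8%. Relative to the median of all genes tested, the endothelial minus astrocyte difference was 4.34, 4.39 and 4.40 for H2-D1 and 1.40, 1.41 and 1.41 for B2m under TMM factors, DESeq2 size factors and library totals alone. Microglial RNA in cells typed as astrocytes was gauged by 9 of 10 microglial genes outside the marker lists. These 9 had at least 100 UMIs in microglia (Gpr34, near 0 there, did not). They stood in astrocytes at 7.75 to 13.4% (median 10.4%) of their microglial level, a background whose source was not tested. The astrocyte level was 10.5% of the microglial one for H2-D1, 13.8% for Psmb9 and 6.10% for H2-T23, at or near that background, but 17.3% for B2m, 19.0% for Psmb8, 20.2% for Tap1, 21.1% for Tapbp, 23.6% for H2-K1 and 77.1% for Tap2. The same microglial genes summed to 8.70% of their microglial level in endothelial cells and 11.5% in mural cells.

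Other genes of the pathway were counted from lists chosen by function, and their counts stand beside 54.9% of all genes called between microglia and astrocytes (1336 of 5107 higher in microglia). Of the loading and trimming factors, 2 of 6 tested passed as higher in microglia than in astrocytes, the chaperones Calr (0.77 ± 0.19 log2, adjusted p = 0.00018) and Canx (0.91 ± 0.18), and both fell from microglia to endothelial cells, with log2 differences of -1.61 ± 0.35 for Calr and -1.49 ± 0.33 for Canx. Of 4 other proteasome genes tested, the proteasome activator Psme1 was higher in microglia than in astrocytes (1.24 ± 0.29), while the constitutive subunits Psmb5 (-1.38 ± 0.36) and Psmb6 (-0.79 ± 0.24) were lower. The regulators that passed as higher in microglia than in astrocytes included the interferon gamma receptor chains Ifngr1 (2.00 ± 0.23) and Ifngr2 (1.17 ± 0.31), the type I interferon receptor chain Ifnar2 (2.26 ± 0.49), and the transcription factor Irf2 (1.03 ± 0.37). The list held 20 interferon-stimulated genes, of which 8 had enough counts for the cell type fit and 2 for the microglial group fits. A gene could enter the cell type fit through the type where it was high, so the values below depend on that filter. Of all genes, 36.4% were called between endothelial cells and astrocytes and 33.4% between endothelial cells and microglia. Higher in endothelial cells were 581 and 575 of 5107, a share that depends on the scaling as given above. Of the 8, 7 were higher in endothelial cells than in astrocytes and 6 were higher than in microglia. Against microglia these were the membrane restriction factor Ifitm3 (3.47 ± 0.43), the guanylate-binding proteins Gbp2 (4.12 ± 0.78) and Gbp3 (2.94 ± 0.87), Oasl2 (2.94 ± 0.87), Ifit1 (2.96 ± 1.04) and Ifit3 (2.44 ± 0.84), with Lgals3bp lower (-1.55 ± 0.56). Reads of closely related Gbp and Ifit family members may be shared between them. The median of the 8 was 2.94 against -0.55 over all genes. Ifngr1 (-2.64 ± 0.46) and Ifngr2 (-3.11 ± 0.77) were lower and Ifnar1 (1.56 ± 0.54) higher in endothelial cells than in microglia. From endothelial to mural cells, Gbp3 (-5.27 ± 1.24) and Ifnar1 (-3.83 ± 0.79) fell. Of 13 other class I heavy chains 1 had enough counts to test, and H2-Q7 was 1.498 ± 0.67 log2 higher in microglia than in astrocytes (adjusted p = 0.0497).

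Among microglia, H2-D1 and H2-K1 were higher in cells with DAM genes than in other microglia of the same mouse. DAM-gated microglia were those with UMIs of at least 2 different genes among Cst7, Lpl, Itgax, Axl, Csf1, Spp1 and Clec7a, none of which is a class I gene. There were 282 among 1585 microglia of Tg2576 mice and 6 among 826 of WT mice, and 6 Tg2576 mice had at least 10 cells of each class (272 DAM-gated and 1211 other). In Tg2576-PMX205 1, 2 and 3 and Tg2576-vehicle 1, 3 and 4, H2-D1 was 1894, 470.3, 1603, 393, 556 and 623 CPM in DAM-gated cells and 797, 93.5, 822, 155, 214 and 456 in the others. H2-K1 was 2503, 769, 2678, 548, 1219 and 867 CPM in DAM-gated cells and 1089, 374, 1244, 334, 673 and 769 in the others. Both were higher in DAM-gated cells in 6 of 6 mice, although the ranges of the classes overlapped between mice. The fitted difference was 1.28 ± 0.21 log2 for H2-D1 (adjusted p = 1.8e-06) and 0.89 ± 0.19 for H2-K1 (adjusted p = 0.00039), 2 of 8 class I genes tested where 2.76% of all genes passed. Of the genes called, 64.3% were higher in DAM-gated cells, and 75.6% with DESeq2 size factors. The median over the 8 was 0.50 against -0.09 over all genes.

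B2m, their shared light chain, was 1393, 723, 1221, 703, 602 and 569 CPM in DAM-gated and 655, 361, 732, 743, 336 and 684 in other microglia of the same mice, higher in 4 of 6, with a difference of 0.59 ± 0.20 log2 that did not pass (adjusted p = 0.10). It passed with DESeq2 size factors (0.65, adjusted p = 0.043), when at least 3 DAM genes were asked for (0.81, adjusted p = 0.027), and without Tg2576-vehicle 4, but turned to -0.13 (adjusted p = 0.95) when cells were thinned to 500 UMIs before gating. Tapbp was higher in 6 of 6 mice, at 512 ± 145 against 390 ± 101 CPM, without passing (0.41 ± 0.22, adjusted p = 0.47). Tap1 (1.09 ± 0.48), Tap2 (0.36 ± 0.53), Psmb9 (0.31 ± 0.46) and Psmb8 (0.06 ± 0.73) did not pass either, each higher in 4 of 6 mice, and H2-T23 had too few counts. Of 6 interferon-stimulated genes tested, 1 passed, Lgals3bp (1.53 ± 0.28 log2, adjusted p = 1.7e-05).

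Depth moved with the DAM gate. The median was 1046 to 1906 UMIs per DAM-gated cell and 724.5 to 947 per other cell. When each cell was thinned to 500 UMIs before gating, the differences were 0.66 for H2-D1 (adjusted p = 0.61) and 0.44 for H2-K1 (adjusted p = 0.77), neither of which passed. With a floor of 1000 UMIs per cell, which does not make depth equal between the classes, they were 1.33 (adjusted p = 8.8e-06) and 0.84 (adjusted p = 0.0012). The share of cells with a barcode alike but for the first base was also higher among DAM-gated cells in the 3 mice where such barcodes were common, 65.6 to 72.7% against 43.4 to 62.2%. Without those cells the differences were 1.40 for H2-D1 and 0.81 for H2-K1, and both passed.

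**Figure D2:**
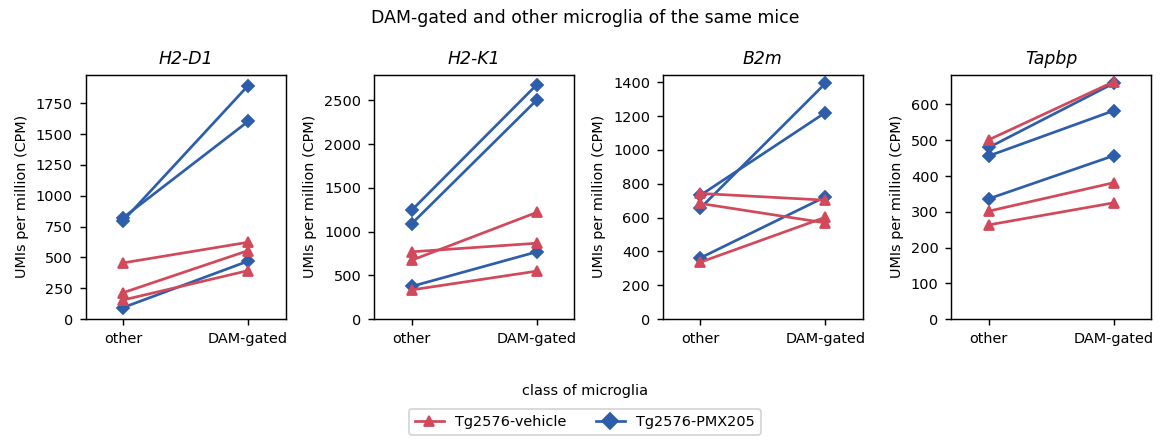
Levels of H2-D1, H2-K1, B2m and Tapbp (CPM, vertical axes from 0) in other and DAM-gated microglia, 1 line per mouse for the 6 Tg2576 mice with at least 10 cells of each class. The DAM-gated end is higher in 6 of 6 mice for H2-D1, H2-K1 and Tapbp and in 4 of 6 for B2m.

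The study compared genotypes and treatments, and microglia of 15 mice with at least 20 such cells entered that fit (WT-PMX205 3, with 13 microglia, did not). Between the vehicle groups the class I values overlapped. H2-D1 was 405, 374, 364, 256 and 131 CPM in the 5 WT-vehicle mice and 215, 189.7, 311 and 491 in the 4 Tg2576-vehicle mice, and the groups overlapped. H2-K1 was 500.1, 993, 433, 808 and 437 CPM in WT-vehicle and 387, 431, 828 and 789.6 in Tg2576-vehicle, and B2m was 612, 521, 492, 419.7 and 752 and 733, 448, 412 and 659.9. The fitted differences between Tg2576-vehicle and WT-vehicle were 0.01 ± 0.37 log2 for H2-D1, -0.02 ± 0.32 for H2-K1, 0.06 ± 0.28 for B2m and 0.14 ± 0.32 for Tapbp. By edgeR 0 of the 7 class I genes tested passed where 0.165% of all genes did, 0 of the 7 and 140 of the 4839 genes had an unadjusted p under 0.05, and the DESeq2 Wald test called 0. The median of the 7 was 0.01 against -0.01 over all genes.

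In Tg2576 mice the highest microglial H2-D1 and H2-K1 values were in PMX205-treated mice, but the difference did not pass over all genes. H2-D1 was 1114, 226, 947 and 700.3 CPM in Tg2576-PMX205 mice 1 to 4, against 215, 189.7, 311 and 491 in Tg2576-vehicle mice 1 to 4. Of the 4 treated mice, 3 lay above every vehicle mouse and Tg2576-PMX205 2 lay among them. H2-K1 was 1498, 513, 1474 and 875 CPM in the treated mice and 387, 431, 828 and 789.6 in the vehicle mice, with the same mouse inside the vehicle range. The fitted differences were 1.27 ± 0.38 log2 for H2-D1 (unadjusted p = 0.0021, adjusted p = 1, edgeR) and 0.82 ± 0.34 for H2-K1 (unadjusted p = 0.0196, adjusted p = 1, edgeR). The edgeR fit called 0 of 7 class I genes and 0% of all genes, 2 of the 7 and 126 of the 4839 genes had an unadjusted p under 0.05, and DESeq2 called 0 of the 7. B2m was 869, 489, 810 and 481 CPM in the treated mice, a difference of 0.22 ± 0.29, Tapbp differed by -0.01 ± 0.33, Tap1 by 0.68 ± 0.59, Tap2 by -0.57 ± 0.50 and Psmb9 by 0.61 ± 0.50. The median of the 7 was 0.61 against -0.01 over all genes.

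The H2-D1 difference varied with region and with single mice. It was 0.73 log2 in cortex alone and 2.13 in hippocampus alone (adjusted p = 0.41), a gap between regions that was not itself tested, and leaving out 1 mouse at a time gave 1.01 (without Tg2576-PMX205 1) to 1.60 (without Tg2576-PMX205 2). Without DAM-gated cells it was 1.11, with the strain label as a covariate 1.36, and without cells whose barcode was alike but for the first base 1.27. Median depth per microglial cell was 710 to 1021 UMIs in treated and 786 to 1004 in vehicle mice, and the 7 astrocyte genes outside the marker lists summed to 323 to 1379 and 293 to 970.1 CPM. H2-Q7 and H2-M3, other heavy chains, are named here after their values were seen. H2-Q7 was 119.6, 0, 181 and 197 CPM in Tg2576-PMX205 1 to 4 and at most 27.3 in the 11 other mice, 3 of 4 treated mice lying above all others. The class I-like H2-M3 was 126, 52.5, 123 and 65.7 CPM in the treated mice and at most 83.2 elsewhere, so that mice 1 and 3 lay above all others and mice 2 and 4 among them. The fitted differences between Tg2576-PMX205 and Tg2576-vehicle were 2.90 ± 0.90 for H2-Q7 and 0.74 ± 0.47 for H2-M3, neither of which passed (adjusted p = 1 for both, edgeR). The strain labels name C5a overexpression for Tg2576-PMX205 1, a C5ar1 knockout for Tg2576-PMX205 4 and neither for mice 2 and 3.

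**Figure D3:**
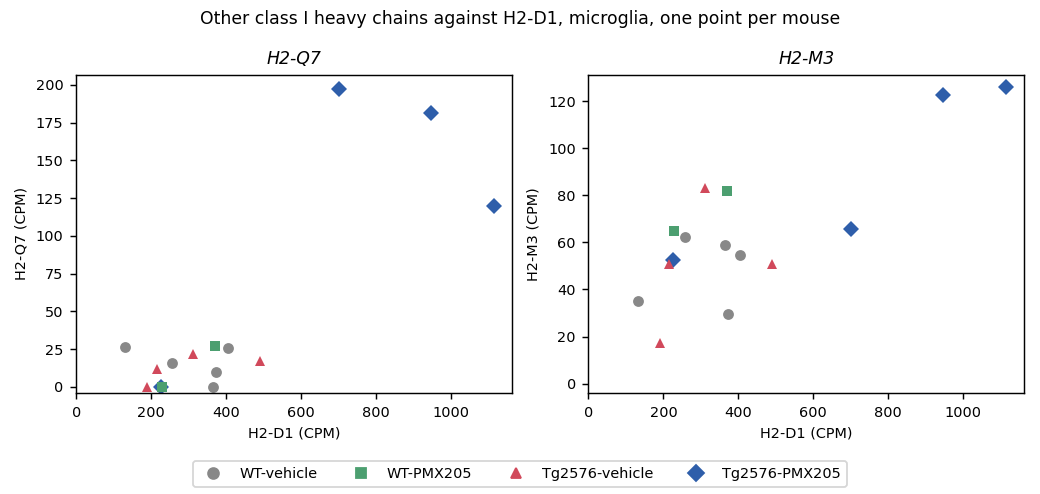
H2-Q7 (left) and H2-M3 (right) against H2-D1 in microglia, all in CPM, 1 point per mouse with at least 20 microglia, marked by group. Tg2576-PMX205 1, 3 and 4 stand apart at the upper right for H2-Q7, and Tg2576-PMX205 1 and 3 for H2-M3.

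In WT mice, PMX205 could be compared in 2 treated mice only. H2-D1 was 228 and 369 CPM in WT-PMX205 1 and 2, within the WT-vehicle range. H2-K1 was 276 and 328 CPM there, both below the lowest WT-vehicle mouse, with a difference of -1.07 ± 0.46 log2 that did not pass (adjusted p = 0.67). The edgeR fit called 0 of 7 class I genes and 0% of all genes, 1 of the 7 and 324 of the 4839 genes had an unadjusted p under 0.05, DESeq2 called 0, and the medians were -0.28 over the 7 and -0.07 over all genes. The difference between the PMX205 effects in Tg2576 and in WT mice was 1.89 ± 0.57 log2 for H2-K1 (adjusted p = 0.998) and 1.31 ± 0.63 for H2-D1 (adjusted p = 0.998). For this contrast edgeR called 0 of 7 and 0% of all genes, 2 of the 7 and 227 of the 4839 genes had an unadjusted p under 0.05, and DESeq2 called 0. H2-T23 and Psmb8 had too few counts in these fits, with 56 and 119 UMIs. The highest microglial H2-T23 value was 63.0 CPM among Tg2576-PMX205 mice, 17.5 among Tg2576-vehicle mice and 37.4 among WT-vehicle mice, with mice at 0 in each of these groups. WT-PMX205 1 and 2 were both above 0, at 32.5 and 13.7 CPM. Psmb8 lay between 9.83 CPM, in a WT-vehicle mouse, and 86.2, in a Tg2576-vehicle mouse.

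**Figure D4:**
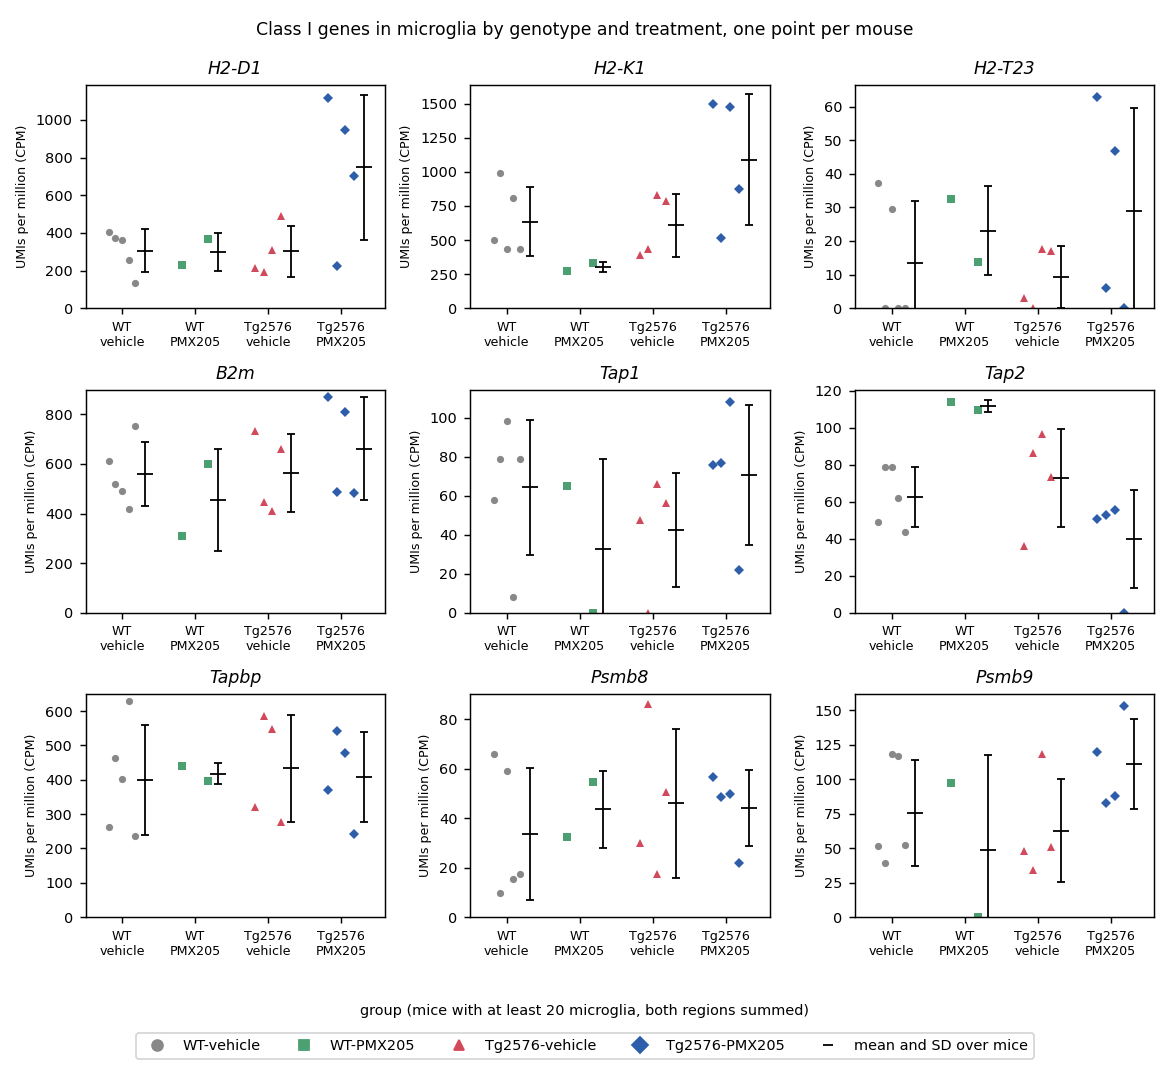
Level of each class I gene in microglia (CPM, vertical axis from 0) by genotype and treatment, 1 point per mouse with at least 20 microglia, both regions summed. Black bars give the mean and SD over 5, 2, 4 and 4 mice, with the lower end not drawn below 0, and the highest H2-D1 and H2-K1 points are Tg2576-PMX205 mice.

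The rest of the pathway was counted from the same lists. Under PMX205 in Tg2576 mice the median log2 difference was 0.19 over 6 loading and trimming factors, 0.25 over 3 proteasome genes, -0.22 over 6 regulators and -0.16 over the 2 interferon-stimulated genes with enough counts. Between Tg2576-vehicle and WT-vehicle the same medians were -0.03, 0.04, 0.21 and 0.38. Both comparisons use the same Tg2576-vehicle mice.

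Astrocytes of 13 mice held far fewer class I counts, and H2-K1, B2m and Tapbp could be tested. H2-K1 was 357, 31.9 and 313 CPM in Tg2576-PMX205 1, 2 and 3, 49.0, 82.5 and 169 in Tg2576-vehicle 1, 2 and 3, 115, 275 and 326 in WT-PMX205 1 to 3 and 221, 88.1, 165 and 101 in WT-vehicle 1 to 4. Tg2576-PMX205 1 and 3 were above the Tg2576-vehicle mice and Tg2576-PMX205 2 was below them. H2-D1, which was not tested there, was 162, 18.2 and 105 CPM in the Tg2576-PMX205 mice and at most 47.1 in the others. Pooled over all cells, the astrocyte level of H2-D1 relative to microglia lay within the range of the microglial genes used as background above. Whether the H2-D1 values of single mice were astrocyte expression was not tested. Microglial genes outside the marker lists summed to 1467 to 2108 CPM in the astrocytes of Tg2576-PMX205 mice and 1073 to 2305 in those of Tg2576-vehicle mice, and their part was not tested. The H2-K1 difference between Tg2576-PMX205 and Tg2576-vehicle was 0.95 ± 0.56 log2 (adjusted p = 0.998), and between Tg2576-vehicle and WT-vehicle it was -0.35 ± 0.54 (adjusted p = 0.996). B2m was 32.8, 0 and 32.6 CPM in WT-PMX205 and 155, 88.1, 149 and 56.0 in WT-vehicle, with every treated mouse below every vehicle mouse, and the difference of -2.31 ± 0.83 did not pass (adjusted p = 0.65). By edgeR 0 of 3 class I genes passed in each of the 3 astrocyte comparisons, where 0% (Tg2576-vehicle against WT-vehicle), 0% (Tg2576-PMX205 against Tg2576-vehicle) and 0.0366% (WT-PMX205 against WT-vehicle) of all genes did. The number with an unadjusted p under 0.05 was 0, 0 and 1 of the 3 and 115, 98 and 204 of the 2731 genes tested, and DESeq2 called 0 of the 3 in each.

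Between regions, class I levels in microglia of the same 14 mice overlapped. H2-K1 was 935 ± 728 CPM in hippocampus and 610.1 ± 251 in cortex (SD, 14 mice), higher in hippocampus in 10 of 14, and H2-D1 was 492.7 ± 476 and 385 ± 184, higher in 6 of 14. With the mouse as a block, the hippocampus minus cortex difference was 0.40 ± 0.17 log2 for H2-K1 (adjusted p = 0.45), -0.03 ± 0.19 for H2-D1, -0.02 ± 0.18 for B2m, 0.10 ± 0.19 for Tapbp, 0.30 ± 0.44 for Tap2 and -0.08 ± 0.42 for Psmb9. By edgeR 0 of these 6 passed where 0.415% of all genes did, 1 of the 6 (H2-K1) and 308 of the 4101 genes had an unadjusted p under 0.05, and DESeq2 called 0. The medians were 0.04 over the 6 and -0.10 over all genes.

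**Figure D5:**
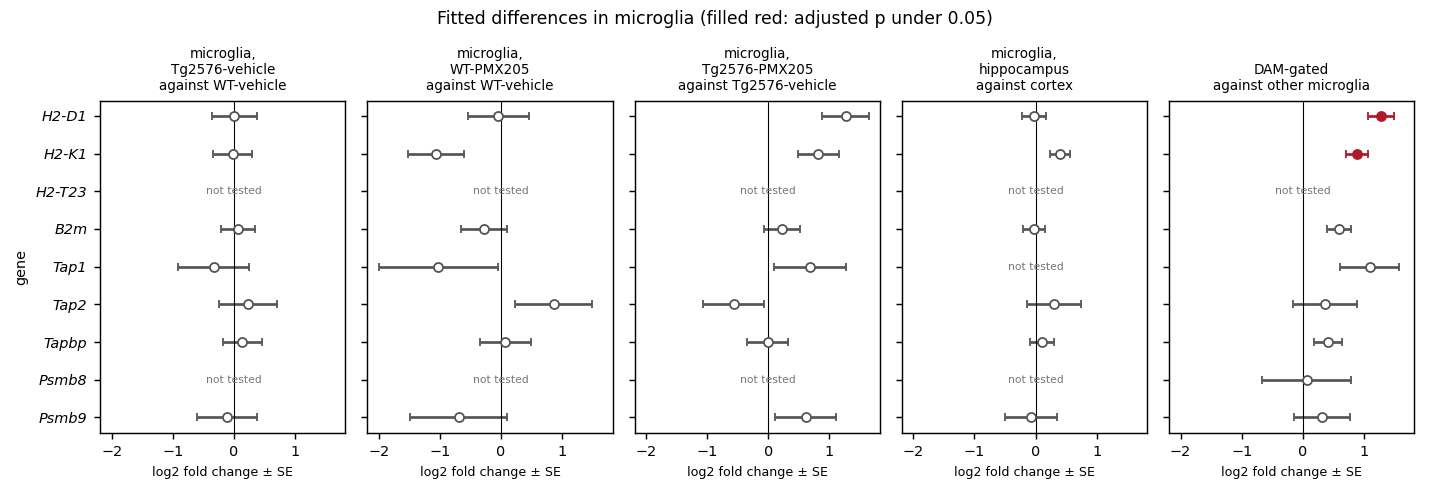
Fitted log2 fold changes with SE (horizontal axes) of the class I genes in 5 microglial comparisons. Filled red points have an adjusted p under 0.05 in edgeR, which holds for H2-D1 and H2-K1 in DAM-gated against other microglia and for no point of the other 4 panels.

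Likeness between the class I genes was measured over the microglia of the 15 mice. On log2 CPM, H2-D1 and H2-K1 had a Pearson correlation of 0.76, B2m had 0.46 with H2-D1 and 0.46 with H2-K1, Tap1 had 0.53 with its divergent neighbour Psmb9 and 0.02 with Tap2, and Tapbp had -0.03 with H2-D1. Other values over 0.5 were 0.63 for H2-D1 and H2-T23, 0.59 for Tap2 and Tapbp and 0.54 for H2-T23 and Psmb8. These are descriptions over 15 mice, whose microglial totals ran from 45692 to 495249 UMIs, and in each mouse all 9 genes come from the same libraries. Leaving out the 9 class I genes, 1997 genes had a mean of at least 100 CPM, and of these the 5 most like H2-D1 were Slc6a6 (0.73), Lgals9 (0.73), Ube2e3 (0.70), Ssrp1 (0.69) and Mpc2 (0.69), and the 5 most like B2m were Rab11a (0.83), Fam189a1 (0.78), Naca (0.75), Fam102b (0.74) and Rpl10a (0.73). Lgals9 encodes a galectin, Slc6a6 the taurine transporter, Naca and Rpl10a proteins of the nascent chain and the ribosome, and Rab11a a small GTPase of recycling endosomes.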

How the data were processed

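The deposited files hold UMI counts per gene and barcode, 1 table per library, which the authors made with kb count (SureCell 3′ chemistry) on mm10 with a GENCODE annotation after bcl2fastq 2.18.0.12, per the labels and methods. Barcodes with at least 500 UMIs, at least 300 genes and at most 5% mitochondrial UMIs were kept, and the 6% with the highest Scrublet scores (scanpy 1.11.5) were removed as doublets. A cell was typed when a marker list had at least 5 UMIs from at least 3 genes and 3 times the UMIs of any other list. Counts were summed per mouse and type, over at least 20 cells for groups and 10 within mice, and tested with edgeR 4.0.16 (filterByExpr, TMM, quasi-likelihood, Benjamini-Hochberg over all genes, threshold 0.05), with DESeq2 1.42.0 as an alternative. The scripts were checked on simulated counts. Regions, cell types and DAM classes were compared with the mouse as a block. The mouse is the replicate. The named genes were the 9 class I genes in every comparison, genes of the pathway lists past the threshold, and the 5 genes most correlated with B2m and with H2-D1. These genes and lists were chosen with earlier results of these data known. H2-L, on the list of other heavy chains, was not among the gene rows, and 1 gene of the regulator list is not reported here by itself. Motif windows came from RefSeq and covered 8 of the 9 genes.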

Additional observations from a re-analysis of the deposited data

Results flagged for a closer look

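Tap2 was at 0 CPM in the microglia of Tg2576-PMX205 4 and between 50.4 and 55.6 CPM in the other 3 Tg2576-PMX205 mice, which put that mouse far from the rest of its group by Dixon's criterion. Its microglia held 45692 UMIs, so a count of 0 allows up to 65.7 CPM, counting error only. Of 38 groups of values examined this was the 1 past the criterion, and chance passes about 1 in 20.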

How the results depend on the processing

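Class I genes past the threshold in each comparison were recounted under every alternative, and 343 of 366 such counts stayed within 1.5 times the reported one. That share includes every comparison of groups or regions, where the reported count was 0 and 0 again was scored as unchanged. It therefore says little about stability in the comparisons with class I genes past the threshold, which are given below. Between endothelial cells and astrocytes the count was 3 as reported and 5 with doublets kept, a looser cell type gate, DESeq2 size factors, library totals alone, or without barcodes seen in several libraries or mice with conflicting labels. Leaving out 1 mouse at a time gave 3 to 5 there, with 5 without Tg2576-vehicle 1, Tg2576-vehicle 3, WT-PMX205 1 or WT-PMX205 3. Between endothelial cells and microglia it was 1 as reported, 0 among cells with at least 1000 UMIs, 2 with doublets kept, and 3 with DESeq2 size factors, the DESeq2 Wald test or library totals alone. With at least 3 cells of a type in place of 10, chosen after seeing the data, it was 6 rather than 3 between endothelial cells and astrocytes, 2 rather than 1 between endothelial cells and microglia, where H2-K1 turned to -0.24, and 6 rather than 2 between mural and endothelial cells. Between microglia and astrocytes it was 5, and 8 with no filter on low counts. Between mural and endothelial cells it was 2, and 4 with doublets kept or a looser gate. For DAM-gated against other microglia it was 2, 3 with DESeq2 size factors, with at least 3 DAM genes or without Tg2576-vehicle 4, and 0 when cells were gated after thinning to 500 UMIs, where the B2m difference turned to -0.13. The causes were not tested, beyond the fewer genes or samples an alternative leaves.

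Pairing was by mouse, as both samples of a pair came from the same animal. Without the replicate block, 0 class I genes passed in DAM-gated against other microglia (H2-D1 1.16, adjusted p = 0.33, and H2-K1 0.97, adjusted p = 0.28), and 0 rather than 17 genes of all passed between regions. Cortex and hippocampus deviations of the same mouse correlated at 0.02 to 0.25 over 14 mice, and 10 of 14 mice matched best with their own other region.

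The number of all genes called was less stable. In DAM-gated microglia it was 126, against 24 after thinning, 32 without the block, 49 without Tg2576-PMX205 2 and 67 without Tg2576-PMX205 3. Between Tg2576-vehicle and WT-vehicle microglia it was 8, against 2 without DAM-gated cells, 3 in hippocampus alone or without mice with conflicting labels, 4 without Tg2576-vehicle 1, 5 in cortex alone and 15 with no filter. With no filter it was 3 rather than 0 for WT-PMX205 against WT-vehicle and for the difference of PMX205 effects, 1 rather than 0 for Tg2576-PMX205 against Tg2576-vehicle (also in hippocampus alone), and 4247 rather than 2802 between microglia and astrocytes. Among cells with at least 1000 UMIs it was 1101 rather than 1706 between endothelial cells and microglia and 555 rather than 843 between mural and endothelial cells, where it was 536 without Tg2576-PMX205 2. Between regions it was 17, with 4 to 28 under the other cell choices and 5 to 11 without Tg2576-PMX205 1, Tg2576-PMX205 3, WT-PMX205 2, WT-vehicle 1 or WT-vehicle 3. In astrocytes it was 0 to 3 for Tg2576-vehicle against WT-vehicle, 0 to 8 for Tg2576-PMX205 against Tg2576-vehicle and 0 to 10 for WT-PMX205 against WT-vehicle, with 3, 8 and 9 when the mice with many first-base-alike barcodes had a term of their own. WT-PMX205 against WT-vehicle could not be fitted in hippocampus alone in either cell type, nor from 50 astrocytes on, nor the difference of PMX205 effects in hippocampus alone. Depth limits H2-T23, Psmb9, Tap1 and Psmb8, which were at 0 in 11, 9, 8 and 7 of the 13 astrocyte samples.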

Other observations

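Class I RNA was also counted per cell. With every cell thinned to 500 UMIs, at least 1 UMI of H2-K1 was seen in 34.7% of endothelial cells, 21.4% of microglia, 12.0% of mural cells and 7.06% of astrocytes. Without thinning the shares were 49.7%, 34.1%, 20.9% and 12.95%, at median depths of 1065, 904, 940 and 1056 UMIs. For H2-D1 the thinned shares were 29.3%, 14.2%, 8.12% and 1.73%, and for B2m 15.6%, 21.5%, 7.26% and 4.87%. Cells of different mice are pooled in these shares, which carry no test.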
